A study of Caenorhabditis elegans with 44 samples.

Results

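The 44 genes described here carry out mitosis in Caenorhabditis elegans: they start it, build the centrosomes and the spindle, attach chromosomes at the kinetochore and bring about anaphase. They were chosen by gene name from a list, with no measured value in the rule, and are followed through all 12 groups of a germline HSF-1 depletion time course. All 44 were present in each of 3 deposited tables, among 10974 genes listed at 8 h, 10178 at 16 h and 10411 at 24 h, and all 44 passed the filter on low values (at least 1 CPM, meaning 1 read per 1 M reads of a library, in as many libraries as the smallest group holds). On the WBcel235 annotation 12 lie on chromosome I, 8 on II, 10 on III, 7 on IV, 7 on V and 0 on X.

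Whole young adults, not heat-shocked, spent 8, 16 or 24 h on plates with auxin or with ethanol before RNA was extracted. HSF-1-AID animals (strain JTL621) carry hsf-1 fused to an auxin-inducible degron and GFP, and a TIR1 transgene, ieSi38 on chromosome IV, in which the sun-1 promoter drives TIR1::mRuby in the germline. TIR1-only animals (CA1199) carry the same transgene and untagged hsf-1. Both strains have the unc-119(ed3) background and its Cbr-unc-119(+) rescue. The groups at each time were HSF-1-AID on auxin, HSF-1-AID on ethanol, TIR1-only on auxin and TIR1-only on ethanol, with 4 libraries each at 8 h and 16 h and 3 each at 24 h. Auxin lets TIR1, a ubiquitin ligase adapter, mark the tagged protein for breakdown, so HSF-1 is removed from germ cells while somatic HSF-1 stays. Nothing in the labels ties replicates to separate cultures. The p-values therefore reflect library spread alone, which may be technical.

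Entry into mitosis is driven by the kinase CDK-1 bound to B-type cyclins, which is switched on by CDC-25 phosphatases and held back by WEE-1 kinases. Polo and Aurora kinases then act on centrosomes, kinetochores and the central spindle, the spindle checkpoint delays anaphase until chromosomes are attached, and the anaphase promoting complex ends mitosis by marking securin and cyclins for degradation. In adult worms the soma no longer divides, so mitosis takes place in the germline stem cell zone and in embryos, and growing oocytes store these mRNAs for the first embryonic divisions.

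Libraries held 12.5 M to 50.7 M reads at 8 h, between 31 M and 57.7 M at 16 h and from 13.3 M up to 24.4 M at 24 h, and the least-read member still had 219, 1041 and 537 reads in its poorest library. Annotated rRNA took 1.26% to 31.4% of reads at 8 h, 1.16% to 3.43% at 16 h and 3.78% to 18.3% at 24 h. The hsf-1 transcript itself did not fall, which the degron, acting on protein, does not target: at 24 h it had 76.8, 74.2 and 81 CPM on auxin against 58.2, 56.3 and 46.8 CPM on ethanol in HSF-1-AID animals (log2 fold change 0.53 ± 0.0916 SE, limma adjusted p = 5.66e-04). TIR1-only animals had 67.6, 69.9 and 69.1 CPM on auxin and 63.8, 72.5 and 72.4 CPM on ethanol. The HSF-1-AID ethanol libraries thus lay below all others of that time.

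Per kilobase of annotated exon, cyb-3 was the highest member in TIR1-only animals on ethanol at each time, with 464.8 CPM per kb at 8 h, 638.2 at 16 h and 585.4 at 24 h. The lowest was mdf-2, with 18.09, 24.77 and 25.5 CPM per kb, and the median member had 76.87, 91.02 and 93.29. CYB-3 is a cyclin B3 and MDF-2 the Mad2 checkpoint protein. Of the 44 genes, 13 have exons that overlap a gene on the opposite strand. The libraries were directional, but the counting strand is not given in the sources used here, so reads of such pairs may not be told apart. The pair cyb-2.1 and cyb-2.2 are close copies that may share reads, and their values are uncertain in that sense.

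After 8 h on auxin none of the 44 genes passed the test in HSF-1-AID animals. After 16 h and 24 h about as many passed it as did not, in both directions, in a fit that leaves replicate pairing out. Each test is limma's moderated test with Benjamini-Hochberg adjustment over all genes of that time, and a call is an adjusted p under 0.05. At 16 h 14 members were lower and 10 higher on auxin than on ethanol, which is 31.8% and 22.7% of the members against 19.8% and 22.4% of all genes tested. At 24 h 19 were lower and 4 higher, or 43.2% and 9.09%, against 20.3% and 18.2% of all genes tested. With the replicate number as a block, which the pairing at 24 h warrants, 28 members were lower and 6 higher. That fit called 2922 lower and 2681 higher of all 10351 genes tested. The share higher at 16 h was at the level of the background, and the share lower at 24 h was above it. At 16 h the auxin libraries lay wholly below the ethanol ones in 14 members and above them in 13 (17.5% and 22.5% of all genes). At 24 h auxin lay wholly below ethanol in 22 members and above it in 5 (25.8% and 23.7% of all genes). The median log2 fold change of the members was -0.02 at 16 h and -0.24 at 24 h, against -0.03 and -0.01 for all genes. Scaled to the plain total of listed reads in place of the deposited scaling, the median of all genes at 24 h moved to 0.11, and 14 members were called lower and 5 higher. Of all 10351 genes tested, 1359 were then lower and 2164 higher. The higher share of all calls at 24 h was then 61.42%, against 47.17% with the deposited scaling.

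**Figure D1:**
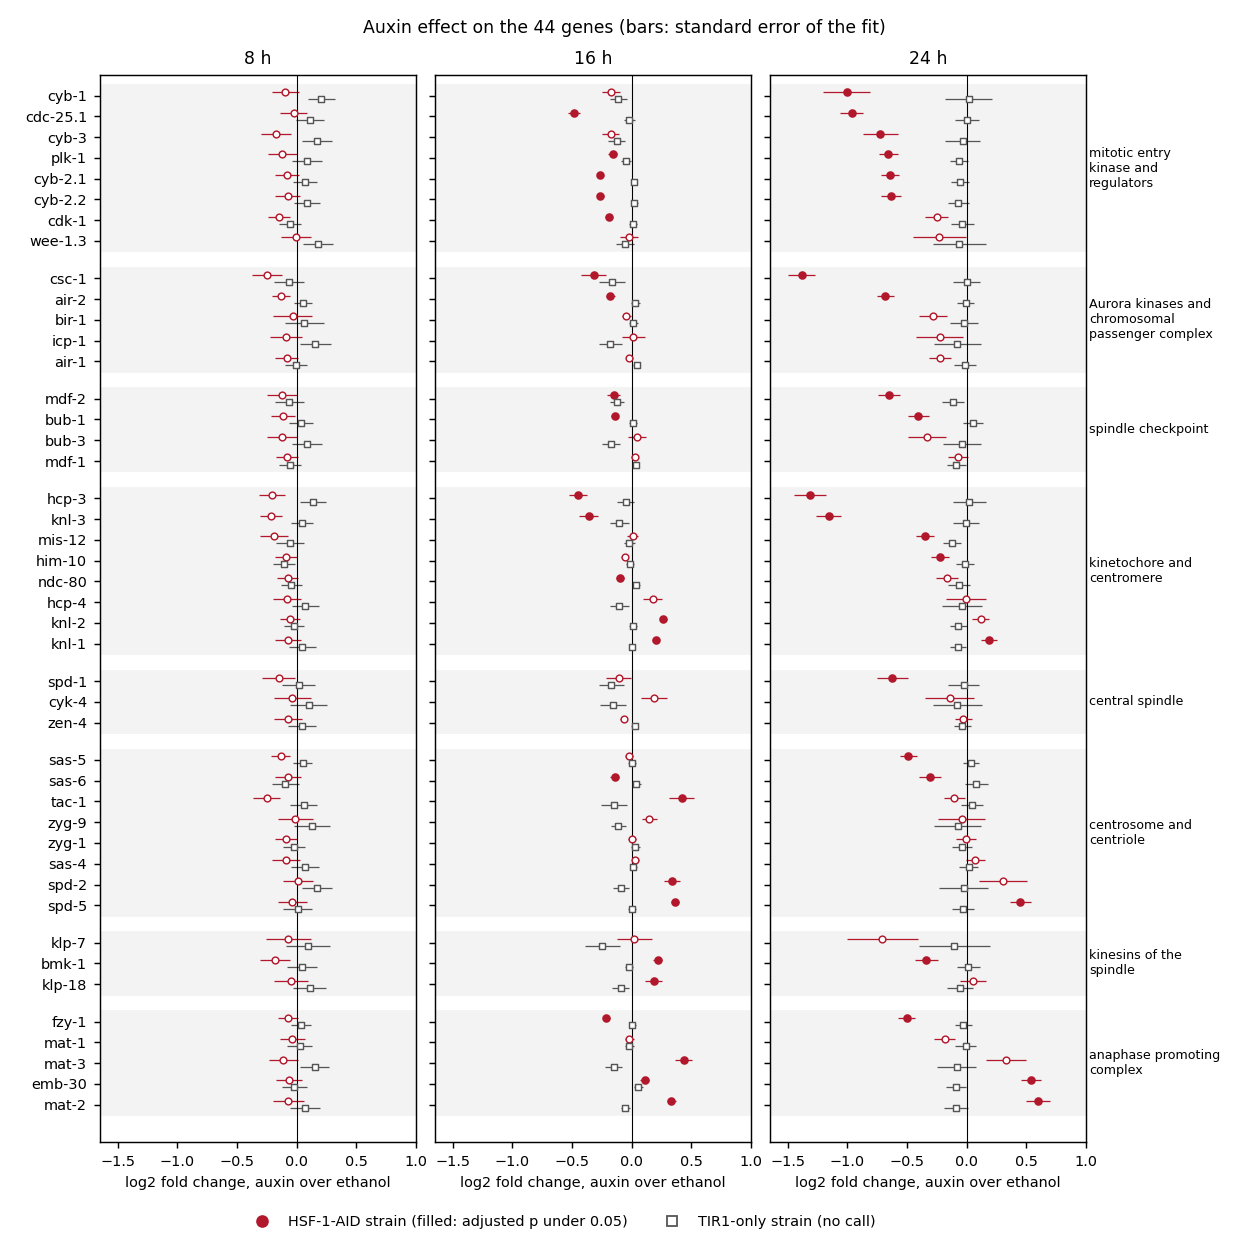
Log2 fold change of auxin over ethanol for each of the 44 genes, by role, at 8 h, 16 h and 24 h, in HSF-1-AID animals (red circles, filled where the adjusted p is under 0.05) and TIR1-only animals (grey squares), with the standard error of the fit. At 24 h the mitotic entry genes all lie left of 0, while mat-2, emb-30 and spd-5 lie to its right. The TIR1-only values run from -0.10 to 0.21 at 8 h, from -0.25 to 0.06 at 16 h and from -0.12 to 0.08 at 24 h.

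In TIR1-only animals, auxin against ethanol gave no call by limma among the 44 genes at 8 h, 16 h or 24 h, when 0.247%, 0.148% and 0.00966% of all genes were called. The numbers at an unadjusted p under 0.05 were 0, 2 and 0 members, against 2.32%, 6.35% and 2.42% of all genes. Member log2 fold changes of TIR1-only animals lay between -0.10 and 0.21 at 8 h, between -0.25 and 0.06 at 16 h and between -0.12 and 0.08 at 24 h. On the ethanol plates of the same times, HSF-1-AID animals set against TIR1-only animals gave no call among the members either (0.00915%, 0.0296% and 0.00966% of all genes). At an unadjusted p under 0.05 it gave 0 members at each time, against 0.924%, 3.94% and 1.78% of all genes. Tested as a difference between the strains' auxin effects, 0 members were called at 8 h (0.00915% of all genes), with 1 at an unadjusted p under 0.05 (3.44% of all genes). By the same test 9 members were lower and 10 higher at 16 h (12.4% and 17.3% of all genes), and 16 lower and 3 higher at 24 h (12.8% and 11.4%). Of the 14 members lower at 16 h, 9 also passed this test of the difference, without csc-1, knl-3, mdf-2, ndc-80 and plk-1, and 9 of the 10 higher did, without emb-30. Of the 19 lower at 24 h, 16 passed it, without bmk-1, him-10 and mis-12, and 3 of the 4 higher did, without knl-1. At 24 h replicate numbers pair the libraries, and a fit with the replicate number as a block called 28 members lower and 6 higher, and 23 lower and 6 higher for the difference between strains. The block raised the calls over all 10351 genes too, to 2922 lower and 2681 higher from 2106 and 1880. For the difference it raised them to 2215 lower and 2114 higher from 1324 and 1180. The count for that difference depended on scaling at both times. At 16 h, with the plain total of listed reads as library size, the median of all genes moved to -0.14 and 11 members were called lower and 5 higher, as they were with rRNA reads left out of the total (median -0.14). At 24 h, with the total of listed reads, 7 members were called lower and 3 higher, and the calls of bub-1, cyb-2.1, cyb-2.2, fzy-1, mdf-2, plk-1, sas-5, sas-6 and spd-1 were lost. Of all 10142 genes at 16 h, 1255 were lower and 1753 higher with the deposited scaling, 1469 and 896 with the total, and 1417 and 894 without rRNA. The higher share of these calls was 58.28%, 37.89% and 38.68%. Of all 10351 genes at 24 h, 754 were lower and 998 higher with the total, against 1324 and 1180.

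At 8 h the 44 genes lay slightly low in HSF-1-AID animals without reaching a call. The log2 fold change was negative for 43 of 44 members, with a median of -0.08 against -0.01 for all genes, and it ran from -0.25 to 0.01. That median depended on single libraries and on scaling: leaving out HSF-1-AID auxin replicate 1 gave -0.145, leaving out replicate 2 of that group gave -0.0539, and leaving out replicate 3 of the ethanol group gave -0.139. It was -0.0211 with the total of listed reads or -0.0303 with rRNA reads left out of it, when 34 of the 44 were negative. The 4 libraries numbered 4 at 8 h stood apart from the other 12, with 44.7 to 50.7 M reads against 12.5 to 26.9 M, and 1.26% to 2.44% rRNA against 5.26% to 31.4%. Without them the median was -0.0734, 37 members were negative and none was called. No member was called by limma, when 0.0366% of all genes were called lower and 0.247% higher. At an unadjusted p under 0.05 there were 2 members, against 4.13% of all genes. These were tac-1, which encodes the TACC protein of spindle microtubules, and knl-3, a MIS12-complex subunit of the outer kinetochore, and in both the auxin libraries lay wholly below the ethanol ones, as they did in 1.78% of all genes. The tac-1 transcript had 107, 92.8, 91.6 and 98.8 CPM on auxin against 114, 110, 111 and 130 CPM on ethanol (adjusted p = 0.995). Members shared libraries and 1 set of scaling factors, so their common sign is not that many separate observations.

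Of 8 genes of mitotic entry, 5 were lower after HSF-1 depletion at 16 h (62.5%) and 6 at 24 h (75%), with none higher at either time. Their median log2 fold change was -0.18 at 16 h and -0.65 at 24 h. For this and every other role, the shares of all genes were 19.8% lower and 22.4% higher at 16 h. At 24 h they were 20.3% lower and 18.2% higher. Roles held 3 to 8 genes, and no test compared a role with all genes. The gene cdc-25.1 (WBGene00000386, chromosome I, 6469386 to 6471922, minus strand) encodes the phosphatase that activates CDK-1 in germline proliferation. At 16 h it had 202, 178, 196 and 209 CPM in HSF-1-AID animals on auxin against 279, 261, 284 and 272 CPM on ethanol, the largest fall of the 44 at that time (log2 fold change -0.48 ± 0.0475 SE, adjusted p = 1.10e-06). The 24 h libraries had 155, 172 and 172 CPM on auxin against 305, 345 and 322 CPM on ethanol (-0.96 ± 0.0971 SE, adjusted p = 7.04e-06). All auxin libraries lay below all ethanol libraries at both times, and the TIR1-only libraries stayed between 257 and 287 CPM at 16 h and between 268 and 338 CPM at 24 h.

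The B-type cyclins fell at 24 h. For cyb-1 (WBGene00000865, chromosome IV, 10735216 to 10737177, plus strand) the HSF-1-AID libraries had 152, 218 and 241 CPM on auxin against 359, 410 and 438 CPM on ethanol (log2 fold change -1.01 ± 0.198 SE, adjusted p = 0.0014). The cyclin B3 gene cyb-3 had 420, 551 and 584 CPM on auxin against 777, 879 and 895 CPM on ethanol (-0.72 ± 0.147 SE, adjusted p = 0.00169). Replicate 1 was the lowest of its group for both cyclins in all 4 groups of 24 h, and neither cyclin's auxin and ethanol groups overlapped. At 16 h neither reached a call, with adjusted p of 0.066 for cyb-1 and 0.0639 for cyb-3, although their groups did not overlap then either, auxin being lower in each. The close copies cyb-2.1 and cyb-2.2 were lower at both times, with log2 fold changes of -0.27 and -0.26 at 16 h and -0.64 and -0.63 at 24 h.

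The kinases moved less evenly. The polo kinase gene plk-1 had 295, 285 and 284 CPM on auxin against 460, 478 and 424 CPM on ethanol at 24 h (log2 fold change -0.65 ± 0.0761 SE, adjusted p = 2.40e-05), and was lower at 16 h too (-0.16, adjusted p = 0.00581). For cdk-1, the kinase itself, libraries had 244, 251, 249 and 236 CPM on auxin against 288, 272, 274 and 283 CPM on ethanol at 16 h (-0.19 ± 0.0373 SE, adjusted p = 7.70e-04), with no overlap. At 24 h cdk-1 had 314, 259 and 276 CPM on auxin against 359, 310 and 340 CPM on ethanol, where the groups overlapped and the adjusted p was 0.0555, or 6.10e-04 with the replicate block. The inhibitory kinase gene wee-1.3 had log2 fold changes of -0.02 at 16 h and -0.23 at 24 h (adjusted p = 0.448 at 24 h, 0.00173 with the block).

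Of 5 genes of the Aurora kinases and the chromosomal passenger complex, 2 were lower at each of 16 h and 24 h and none higher. That is 40% lower, against 19.8% of all genes at 16 h and 20.3% at 24 h. The complex places Aurora B on centromeres and the central spindle. The largest fall of all 44 genes at 24 h was that of csc-1 (WBGene00000804, chromosome II, 13596955 to 13597947, plus strand), which encodes the borealin-like subunit. Its libraries had 35.2, 44.1 and 46.1 CPM on auxin against 98.5, 109 and 118 CPM on ethanol, so that the highest auxin library lay below every ethanol library (log2 fold change -1.38 ± 0.113 SE, adjusted p = 1.10e-06). The 16 h libraries had 92.2, 78.9, 98.1 and 105 CPM on auxin against 132, 126, 106 and 104 CPM on ethanol, where the groups overlapped (-0.32 ± 0.107 SE, adjusted p = 0.0253). This 16 h call was lost without HSF-1-AID auxin replicate 2 (adjusted p = 0.0968), ethanol replicate 1 (0.0759) or ethanol replicate 2 (0.0701).

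The Aurora B gene air-2 (chromosome I, 5937195 to 5938881) had 67.2, 68.7 and 66.9 CPM on auxin against 111, 104 and 109 CPM on ethanol at 24 h (log2 fold change -0.68 ± 0.072 SE, adjusted p = 1.10e-05). The 3 auxin libraries were within 2 CPM of each other and well under every other library of that time. The survivin homologue bir-1, another subunit, had 42, 37.9 and 37.9 CPM on auxin against 53.9, 46.5 and 43.1 CPM on ethanol, with no overlap and an adjusted p of 0.0767 (0.00313 with the replicate block). Neither icp-1, the INCENP subunit (-0.23, adjusted p = 0.391), nor air-1, the Aurora A kinase of centrosomes (-0.22, adjusted p = 0.0667), was called at 24 h, and with the block both were (0.00483 and 0.00184).

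**Figure D2:**
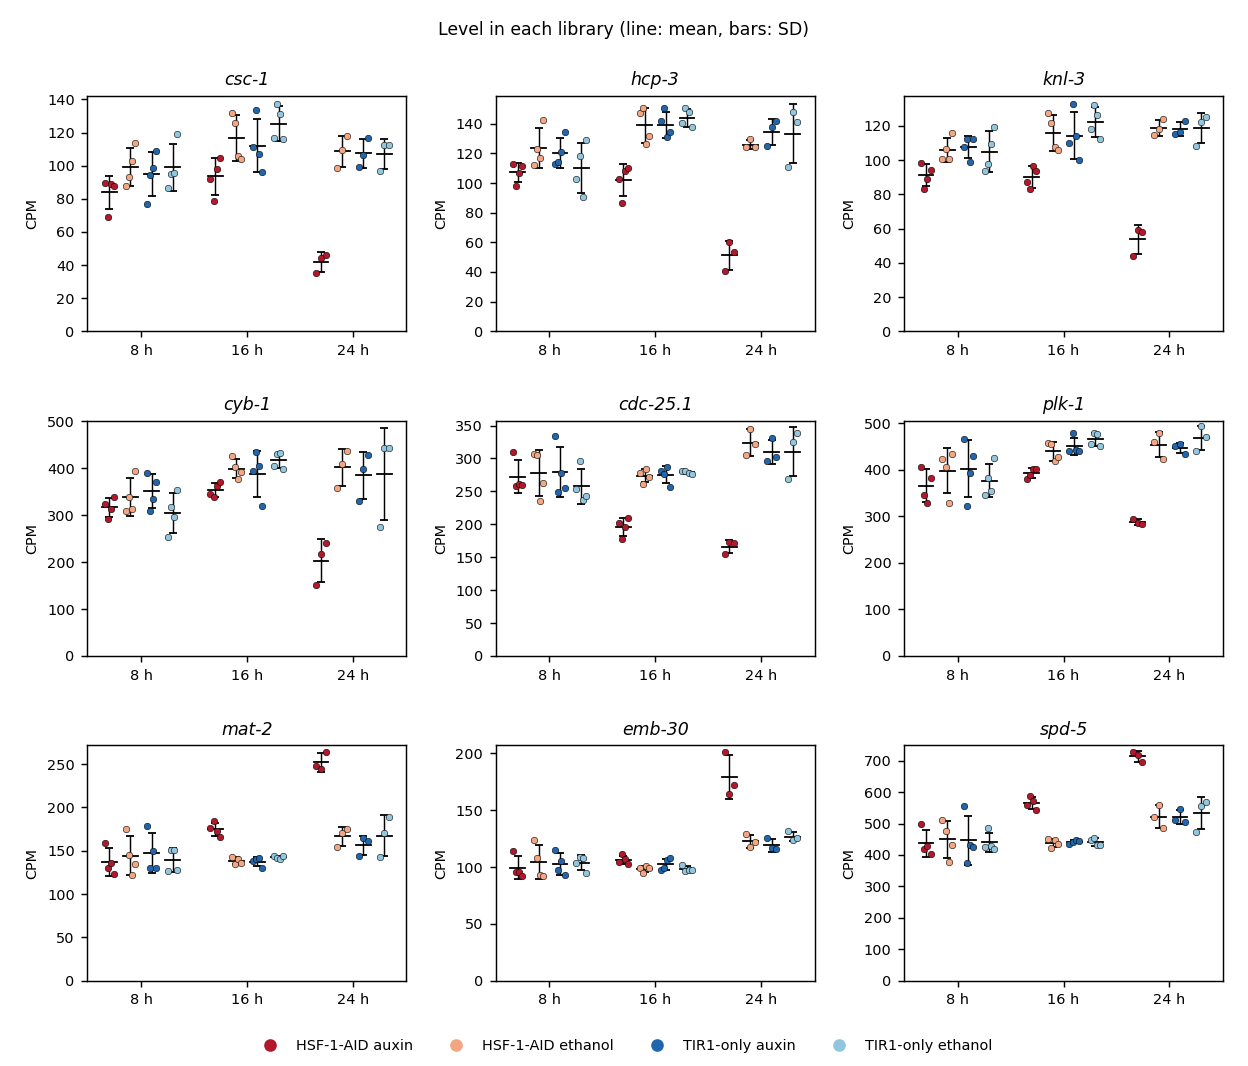
CPM of 9 genes in each library at 8 h, 16 h and 24 h, by group (points: libraries; lines and bars: mean and SD, n = 3 at 24 h and 4 otherwise). The HSF-1-AID auxin points of csc-1, hcp-3, knl-3, cyb-1, cdc-25.1 and plk-1 lie below all other groups at 24 h, and those of mat-2, emb-30 and spd-5 lie above them.

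Among the 4 spindle checkpoint genes 2 were lower at both times and none higher (50% lower, against 19.8% of all genes at 16 h and 20.3% at 24 h). For bub-1, a checkpoint kinase of kinetochores, libraries had 231, 240 and 248 CPM on auxin against 310, 322 and 318 CPM on ethanol at 24 h, without overlap (log2 fold change -0.40 ± 0.0856 SE, adjusted p = 0.00232). The margin was smaller at 16 h (-0.14, adjusted p = 0.00183). The Mad2 gene mdf-2 fell at 24 h (-0.65, adjusted p = 1.19e-04), and its 16 h call (-0.15, adjusted p = 0.0422) was lost on leaving out each HSF-1-AID library in turn other than ethanol replicate 3, with adjusted p up to 0.103. The Mad1 gene mdf-1 was not called at 24 h (-0.07, adjusted p = 0.539), nor was bub-3, which partners BUB-1 (-0.33, adjusted p = 0.118, or 1.96e-04 with the block).

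Of 8 kinetochore and centromere genes, 3 were lower and 2 higher at 16 h (37.5% and 25%, against 19.8% and 22.4% of all genes). At 24 h 4 were lower and 1 higher (50% and 12.5%, against 20.3% and 18.2%). The share higher at 16 h was near the background. The centromeric histone H3 variant CENP-A is made from hcp-3 (WBGene00001831, chromosome III, 9615306 to 9616470, minus strand). Its libraries had 40.4, 59.9 and 53.4 CPM on auxin against 124, 130 and 124 CPM on ethanol at 24 h (log2 fold change -1.31 ± 0.137 SE, adjusted p = 9.13e-06), and 103, 86.2, 108 and 110 CPM on auxin against 147, 151, 126 and 132 CPM on ethanol at 16 h (-0.45 ± 0.0744 SE, adjusted p = 1.67e-04). At neither time did the groups overlap, and at 24 h the lowest TIR1-only library had 111 CPM.

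The outer kinetochore gene knl-3 (WBGene00020392, chromosome V, 1869213 to 1870558, plus strand) had 44.1, 58.9 and 58.2 CPM on auxin against 115, 118 and 124 CPM on ethanol at 24 h (log2 fold change -1.15 ± 0.105 SE, adjusted p = 2.94e-06). The 16 h libraries had 87.2, 82.8, 96.4 and 93.9 CPM on auxin against 128, 122, 108 and 106 CPM on ethanol (-0.36 ± 0.0836 SE, adjusted p = 0.00266), again without overlap. Its exons share 568 bases with T10B5.3 on the opposite strand, whose own level was not called changed at 24 h, with means of 51.93 CPM on auxin and 55.37 CPM on ethanol (-0.09, adjusted p = 0.424). Another MIS12-complex gene, mis-12, was lower at 24 h alone (-0.35, adjusted p = 0.00261), as was him-10, the Nuf2 subunit of the NDC80 complex (-0.22, adjusted p = 0.0292). The him-10 call was lost without HSF-1-AID auxin replicate 2 or 3 or ethanol replicate 1 or 2 (adjusted p from 0.0536 to 0.118). Those fits had no replicate block, and with the block on all libraries him-10 was called lower.

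The ndc-80 transcript, for the microtubule-binding subunit of that complex, was lower at 16 h only by a small step. It had 132, 132, 133 and 133 CPM on auxin against 139, 136, 148 and 143 CPM on ethanol (log2 fold change -0.10 ± 0.0347 SE, adjusted p = 0.0365), and the call was lost without each of the 4 auxin libraries in turn or without ethanol replicate 3 or 4 (adjusted p from 0.058 to 0.115). At 24 h it had 182, 154 and 148 CPM on auxin against 185, 181 and 175 CPM on ethanol, with overlap and an adjusted p of 0.176 (0.0182 with the block). The scaffold gene knl-1 was higher at both times, by 0.20 at 16 h (adjusted p = 3.08e-05) and 0.19 at 24 h (adjusted p = 0.044), and the 24 h call was lost on leaving out each of the 6 HSF-1-AID libraries in turn (adjusted p from 0.0581 to 0.131). Those fits had no block, and with the block on all libraries knl-1 was called higher at 24 h. The centromere gene knl-2, needed to load CENP-A, was higher at 16 h (0.27, adjusted p = 4.61e-06) and not called at 24 h (0.12, adjusted p = 0.207). Its exons share 92 bases with acdh-3 on the opposite strand. The acdh-3 gene was lower at 16 h (-0.14, adjusted p = 7.17e-04) and at 24 h (-0.33, adjusted p = 0.00569). The CENP-C gene hcp-4 was not called at 16 h (0.18, adjusted p = 0.0819) or at 24 h (adjusted p = 0.991).

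Central spindle genes, which bundle microtubules between separating chromosomes, gave 1 call. The bundling protein gene spd-1 was lower at 24 h, at 75.6 ± 7.13 CPM on auxin and 117 ± 16 CPM on ethanol (SD, n = 3 each; log2 fold change -0.62, adjusted p = 0.00209). The kinesin-6 gene zen-4 had 262, 229 and 236 CPM on auxin against 258, 245 and 236 CPM on ethanol, with full overlap (-0.03 ± 0.0729 SE, adjusted p = 0.806). Its partner cyk-4 was not called (-0.14, adjusted p = 0.63).

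Of 8 centrosome and centriole genes, 1 was lower and 3 were higher at 16 h (12.5% and 37.5%, against 19.8% and 22.4% of all genes). At 24 h 2 were lower and 1 higher (25% and 12.5%, against 20.3% and 18.2%), which is near the background. The scaffold of the pericentriolar material is SPD-5, whose gene (WBGene00004955, chromosome I, 5171275 to 5176654, minus strand) had 727, 719 and 695 CPM on auxin against 520, 560 and 487 CPM on ethanol at 24 h (log2 fold change 0.45 ± 0.0905 SE, adjusted p = 0.00154). The 16 h libraries had 559, 588, 570 and 544 CPM on auxin against 452, 424, 448 and 435 CPM on ethanol (0.36 ± 0.0349 SE, adjusted p = 8.32e-07). Every auxin library exceeded every ethanol library at both times. Its partner spd-2 was higher at 16 h (0.34, adjusted p = 6.68e-04) and at 24 h had a log2 fold change of 0.30 (adjusted p = 0.263, or 6.44e-04 with the block).

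The gene tac-1 (WBGene00006381, chromosome II, 14752891 to 14753877, minus strand) had 178, 184, 192 and 184 CPM on auxin against 157, 160, 119 and 121 CPM on ethanol at 16 h (log2 fold change 0.42 ± 0.108 SE, adjusted p = 0.00566), with no overlap. Within the ethanol group replicates 1 and 2 stood above replicates 3 and 4. At 24 h tac-1 had 108, 124 and 123 CPM on auxin against 119, 121 and 141 CPM on ethanol, with overlap (-0.10, adjusted p = 0.408). Its binding partner zyg-9, an XMAP215 microtubule polymerase, had 258, 344 and 352 CPM on auxin against 276, 361 and 342 CPM on ethanol at 24 h (-0.04 ± 0.197 SE, adjusted p = 0.89), and replicate 1 was the low library in all 4 groups.

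The centriole assembly genes sas-5 and sas-6 were lower at 24 h, by -0.49 (adjusted p = 1.41e-04) and -0.31 (adjusted p = 0.019) on the log2 scale. The sas-6 call at 24 h was lost without HSF-1-AID auxin replicate 1 or 3 or ethanol replicate 2 or 3, with adjusted p from 0.0514 to 0.0753. Those fits had no replicate block, and with the block on all libraries sas-6 was called lower at 24 h. At 16 h sas-6 was lower too (-0.14, adjusted p = 0.00952), and sas-5 was not called (-0.02, adjusted p = 0.641). The other centriole genes, sas-4 (0.07, adjusted p = 0.501) and the kinase gene zyg-1 (adjusted p = 0.981), gave no call at 24 h.

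Of the spindle kinesin genes, bmk-1, the kinesin-5, was called in opposite directions at different times, and no other member was. It averaged 188.3 ± 6.95 CPM on auxin and 161.8 ± 5.88 CPM on ethanol at 16 h (SD, n = 4 each; log2 fold change 0.22, adjusted p = 1.45e-04), and 137.8 ± 7.9 CPM on auxin and 173.8 ± 4.02 CPM on ethanol at 24 h (SD, n = 3 each; -0.34, adjusted p = 0.0164). Without HSF-1-AID auxin replicate 1 or ethanol replicate 2 the 24 h call was lost (adjusted p = 0.0562 and 0.0547), in fits without the replicate block. With the total of listed reads as library size it was lost as well, and the 24 h fall did not pass the test of the difference from TIR1-only animals. With the block on all libraries bmk-1 was called lower at 24 h. Times were normalized in separate tables, so the change between them was not tested.

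The microtubule-depolymerizing kinesin gene klp-7 had 74.2, 140 and 134 CPM on auxin against 138, 200 and 218 CPM on ethanol at 24 h, with log2 fold change -0.70 ± 0.296 SE and adjusted p = 0.0774. Replicate 1 was the lowest in all 4 groups, and with the replicate block the adjusted p was 2.25e-07. The meiotic spindle kinesin gene klp-18 was higher at 16 h (0.18, adjusted p = 0.04), a call lost on leaving out HSF-1-AID auxin replicate 2, 3 or 4 or ethanol replicate 2, 3 or 4 (adjusted p from 0.0519 to 0.115).

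Of the anaphase promoting complex, some subunit genes were higher and the activator gene fzy-1 lower. At 16 h 3 of 5 genes were higher and 1 lower (60% and 20%, against 22.4% and 19.8% of all genes). At 24 h 2 were higher and 1 lower (40% and 20%, against 18.2% and 20.3%). The median log2 fold change at 24 h was 0.33, the highest of the 8 roles. The largest subunit gene by exon length, mat-2 (WBGene00003133, chromosome II, 11112719 to 11120805, plus strand), encodes the APC1 scaffold. It had 247, 244 and 264 CPM on auxin against 154, 170 and 175 CPM on ethanol at 24 h (log2 fold change 0.60 ± 0.102 SE, adjusted p = 4.92e-04), and 177, 184, 172 and 166 CPM on auxin against 143, 135, 140 and 136 CPM on ethanol at 16 h (0.33 ± 0.0367 SE, adjusted p = 3.42e-06). Neither time had overlapping groups, and no TIR1-only library passed 189 CPM.

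The APC4 gene emb-30 (WBGene00001284, chromosome III, 9435507 to 9441460, minus strand) had 202, 164 and 173 CPM on auxin against 129, 118 and 122 CPM on ethanol at 24 h (log2 fold change 0.54 ± 0.0838 SE, adjusted p = 2.33e-04). The 16 h libraries had 105, 111, 107 and 103 CPM on auxin against 99.2, 95, 101 and 99.2 CPM on ethanol (0.11 ± 0.0378 SE, adjusted p = 0.027). The groups did not overlap at either time, but the 16 h call was lost without HSF-1-AID auxin replicate 2 (adjusted p = 0.0899), auxin replicate 3 (0.0563) or ethanol replicate 2 (0.08). For mat-3, the APC8 gene (chromosome III, 475454 to 482325), libraries had 79.3, 81.6, 79.6 and 75.5 CPM on auxin against 61.1, 63.2, 53.5 and 55.7 CPM on ethanol at 16 h, the largest rise of the 44 at that time (0.44 ± 0.0711 SE, adjusted p = 1.47e-04).

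At 24 h mat-3 had 66.1, 75.5 and 89.9 CPM on auxin against 51.7, 61.9 and 70.1 CPM on ethanol, with overlap (log2 fold change 0.33, adjusted p = 0.132, or 1.97e-04 with the replicate block). The Cdc20 activator gene fzy-1 had 191, 188 and 191 CPM on auxin against 280, 254 and 274 CPM on ethanol at 24 h, all auxin libraries being below all ethanol ones (-0.50 ± 0.0704 SE, adjusted p = 1.17e-04), and it was lower at 16 h (-0.21, adjusted p = 8.62e-05). The APC3 gene mat-1 was not called at 24 h (-0.18, adjusted p = 0.125, or 0.02 with the block).

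Set side by side in the fit without the replicate block, 12 members were lower at both 16 h and 24 h and 4 were higher at both (emb-30, knl-1, mat-2 and spd-5). Lower at both were air-2, bub-1, cdc-25.1, csc-1, cyb-2.1, cyb-2.2, fzy-1, hcp-3, knl-3, mdf-2, plk-1 and sas-6. Another 6 were lower at 24 h alone (cyb-1, cyb-3, him-10, mis-12, sas-5 and spd-1) and 2 at 16 h alone (cdk-1 and ndc-80), while 5 were higher at 16 h alone (klp-18, knl-2, mat-3, spd-2 and tac-1), and 14 were called at neither time. With the replicate block, which the 24 h pairing warrants, 7 of these 14 were called lower at 24 h (air-1, bir-1, bub-3, icp-1, klp-7, mat-1 and wee-1.3), as were cdk-1 and ndc-80, and mat-3 and spd-2 were called higher. Over all 10351 genes the block called 2922 lower and 2681 higher at 24 h, against 2106 and 1880 without it. A call at one time and not at the other was not tested as a difference between times.

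Summed over the 44 genes, the level was 7761 to 8536 CPM in HSF-1-AID auxin libraries at 24 h against 9355 to 10140 CPM in HSF-1-AID ethanol libraries, 9100 to 9931 CPM in TIR1-only auxin libraries and 8815 to 10560 CPM in TIR1-only ethanol libraries. At 16 h the sums were 8925 to 9288 CPM and 8873 to 9566 CPM in HSF-1-AID auxin and ethanol libraries, and they overlapped. With the deposited scaling, the 24 h sum in each HSF-1-AID auxin library was below that of every other library of that time. That scaling set the library size at 1.154 times the listed reads in HSF-1-AID auxin replicate 1 and 0.8616 times in ethanol replicate 3. With the plain total these factors put the sum of HSF-1-AID auxin replicate 1 above that of ethanol replicate 3. The order of the sums therefore depends on the scaling.

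Exon length tracked the direction of change among the 44 genes. Of the 15 with the shortest annotated exons (673 to 1559 bases), 8 were lower and 1 higher at 16 h, and 10 were lower and 0 higher at 24 h. Of the 15 longest (2500 to 4609 bases), 1 was lower and 8 were higher at 16 h, and 2 were lower and 4 higher at 24 h. Between exon length and log2 fold change over the 44 genes, Spearman's rho was 0.57 at 8 h, 0.54 at 16 h and 0.62 at 24 h, against 0.11, 0.10 and -0.01 over all genes of the annotation tested. In TIR1-only animals rho over the members was 0.13, 0.06 and -0.28. These are descriptions across genes that share libraries, normalization and in part a complex, with no p. The short genes include csc-1, hcp-3, tac-1 and knl-3, the long ones mat-2, spd-5, zyg-9 and emb-30. Roles and length are entangled, since mat-2, emb-30 and spd-5 are among the 15 longest and cyb-2.1, cyb-2.2, cyb-3, csc-1 and bir-1 among the 15 shortest, and the part of either was not tested.

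**Figure D3:**
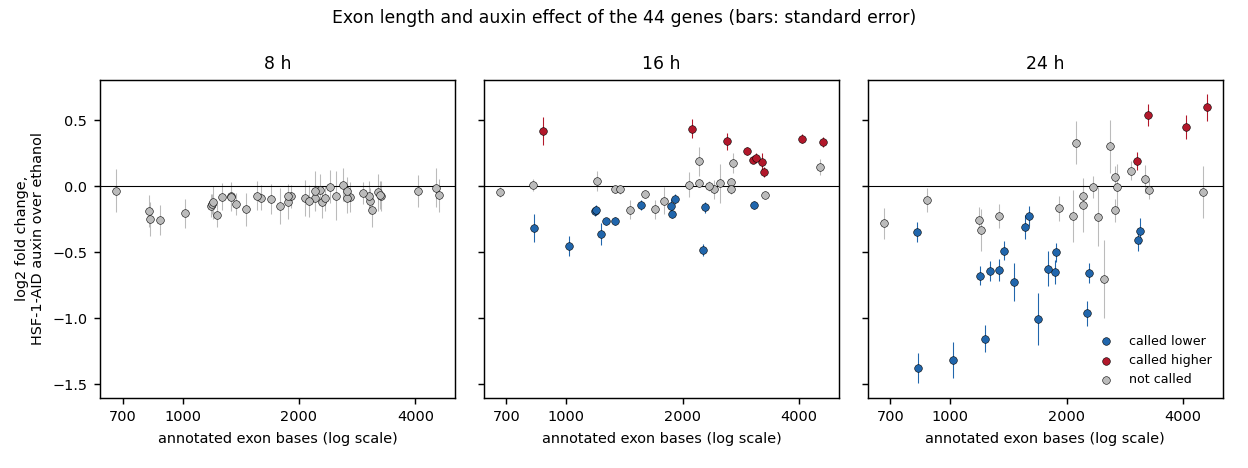
Log2 fold change of HSF-1-AID auxin over ethanol (y axis, with standard error) against annotated exon bases (x axis, log scale) for the 44 genes at 8 h, 16 h and 24 h. At 24 h none of the 15 shortest genes was called higher, while mat-2, the longest at 4609 bases, had the largest rise.

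Other genes of mitosis came from lists of related pathways, and their counts stand beside shares of all genes of 19.8% lower and 22.4% higher at 16 h, and 20.3% lower and 18.2% higher at 24 h. No test compared these lists with the 44 genes or with each other. Of 19 further cell cycle kinases and regulators, 6 were lower and 3 higher at 16 h, and 6 lower and 1 higher at 24 h. Among them cdc-25.3, another CDC-25 phosphatase, averaged 19.9 ± 1.31 CPM on auxin and 58.4 ± 6.97 CPM on ethanol at 24 h (SD, n = 3 each; log2 fold change -1.54, adjusted p = 9.15e-08), and the cyclin D gene cyd-1 averaged 1.69 ± 0.148 and 6.62 ± 0.753 CPM (-1.90, adjusted p = 7.36e-07). Of 14 further kinetochore and checkpoint genes, 3 were lower and 1 higher at 16 h, and 6 lower and 0 higher at 24 h, with spdl-1, the Spindly homologue, at -0.57 (adjusted p = 0.0027) and kbp-1, a KNL-binding protein, at -0.67 (adjusted p = 0.00461).

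Of 11 further anaphase genes, 1 was lower and 3 higher at 16 h, and 3 lower and 2 higher at 24 h, the higher pair being the APC subunit genes apc-2 (log2 fold change 0.61, adjusted p = 8.32e-04) and apc-17 (0.68, adjusted p = 0.0042). Condensin and cohesin genes (15 tested) were 1 lower and 5 higher at 16 h, and 3 lower and 4 higher at 24 h, with capg-2, a condensin subunit, at -0.55 (adjusted p = 2.06e-04) and smc-4, the condensin core ATPase, at 0.50 (adjusted p = 2.79e-04). Among 26 tubulin and spindle microtubule genes, 4 were lower and 10 higher at 16 h, and 9 lower and 6 higher at 24 h. At 24 h the katanin subunit gene mei-2, which serves the meiotic spindle, averaged 104.4 ± 18.3 CPM on auxin and 226.8 ± 14.7 CPM on ethanol (-1.13, adjusted p = 1.33e-05), while the dynactin gene dnc-1 was higher (0.62, adjusted p = 3.32e-05). Of 16 cytokinesis ring and polarity genes, 0 were lower and 6 higher at 16 h, and 1 lower and 2 higher at 24 h, with the formin gene cyk-1 at 0.67 (adjusted p = 0.00169).

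Some marker genes of oocytes and embryos, among other cell types, were also called at 16 h and 24 h. Which cells held the mRNAs of the members was not measured. In RNA of whole animals, fewer cells of a type and less RNA per cell cannot be told apart. Of 16 oocyte and eggshell markers, 10 were lower at 16 h and 13 at 24 h with none higher, their median log2 fold change was -0.25 and -1.27, and their summed level at 24 h was 6671 to 9650 CPM in HSF-1-AID auxin libraries against 17510 to 21520 CPM in HSF-1-AID ethanol libraries. The egg-coat gene egg-2 averaged 134.7 ± 2.28 CPM on auxin and 470.2 ± 6.82 CPM on ethanol at 24 h (log2 fold change -1.80, adjusted p = 4.00e-09). Embryo markers, of which 6 of 17 were listed at 24 h, had 4 lower and 0 higher (median -1.21), with a sum of 72.96 to 75.65 CPM on auxin against 151.4 to 165.9 CPM on ethanol, and elt-1 among them at 0.638 ± 0.0447 and 3.98 ± 0.53 CPM.

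Of 19 germline progenitor and meiotic markers, 1 was lower and 7 higher at 16 h (5.26% and 36.8%), and 2 were lower and 4 higher at 24 h (10.5% and 21.1%, against 20.3% and 18.2% of all genes). The share higher at 24 h was near the background. Their sum at 24 h was 3117 to 3308 CPM on auxin against 3084 to 3210 CPM on ethanol. The synaptonemal complex gene syp-1 averaged 113.2 ± 8.68 CPM on auxin and 67.3 ± 1.19 CPM on ethanol at 24 h (log2 fold change 0.75, adjusted p = 7.55e-06), and the axis gene htp-1 was lower (-0.69, adjusted p = 8.47e-05). P granule markers (10 genes) were 3 lower and 1 higher at 24 h (30% and 10%). Of 10 intestine markers tested, 4 were lower and 0 higher at each of 16 h and 24 h (40% lower). Of 7 somatic gonad markers tested, 3 were lower at 16 h and 2 at 24 h (42.9% and 28.6%), with 0 higher. The lower share of all genes was 19.8% at 16 h and 20.3% at 24 h. Of 16 sperm markers only spe-41 was listed at 16 h and 24 h, and at 24 h it was higher, at 10.3 ± 3.19 CPM on auxin and 4.16 ± 1.49 CPM on ethanol (SD, n = 3 each; adjusted p = 0.0166). Muscle, neuron and hypodermis markers gave 0, 1 and 0 calls at 24 h, the neuron one higher. The part of oocytes, embryos and germline progenitors in the members' values was not tested.

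**Figure D4:**
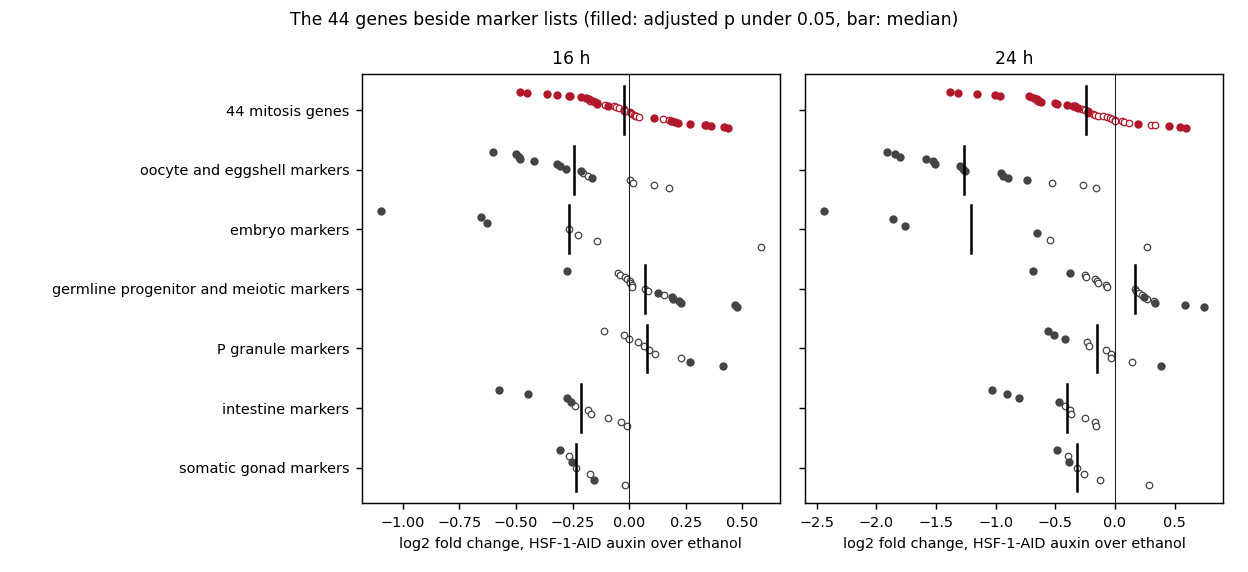
Log2 fold change of HSF-1-AID auxin over ethanol at 16 h and 24 h for the 44 genes and for the genes of 6 marker lists (filled: adjusted p under 0.05; vertical bar: median of the row). At 24 h the median of the oocyte and eggshell markers is -1.27 and that of the 44 genes -0.24, while the germline progenitor and meiotic markers have a median above 0.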

How the data were processed

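Directional libraries were made from poly(A) RNA of whole worms, per the labels' protocols. The tools named in the submitters' processing notes for the authors' work are STAR, featureCounts and edgeR, and the builds are WBcel235 and ce11. Versions, annotation and counting strand are not given in the sources used here. The deposited values are the authors' log2 CPM, scaled between libraries, with a prior count of 2 reads. With that offset removed, 100% of the values checked (172837 at 8 h, 157856 at 16 h and 123761 at 24 h) were whole reads within 0.05 of a read. The largest values were not checked. The authors' deposited fold-change tables were not used, since the contrast is not stated there.

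Each time has its own table, and tests were made within a time. The log2 values were fitted with limma 3.58.1 (R 4.3.3, trend on, robust off), with 4 groups in 1 fit and 12, 12 and 8 residual degrees of freedom at 8 h, 16 h and 24 h. Genes with at least 1 CPM in 4 (8 h, 16 h) or 3 (24 h) libraries were tested: 10932, 10142 and 10351. The p-values are two-sided and were adjusted over these genes after Benjamini and Hochberg, with a threshold of 0.05. Calls in the text and figures are from the fit of the 4 groups without a replicate block, unless the block is named. Tests on recovered reads by negative binomial models were planned and not run, as the deposited unit is log2. The scripts were tested on simulated data. Positions and exon lengths are from the Ensembl annotation of WBcel235, which holds 11425 of the 11430 genes listed.

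The members, the pathway and marker lists and the rule for named genes were chosen with earlier results of these data known. The rule named 15 genes by role, the 3 largest called falls and rises at each time, and 2 genes per further list with the smallest adjusted p at 24 h. One gene of a further list that this rule named is not reported here. All other members are given by log2 fold change or count.

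Replicate numbers come from the sample titles. At 24 h all 18 same-numbered pairs deviated together from their group means (r from 0.186 to 0.542), so the numbers were taken to pair the libraries. At 8 h and 16 h r ran from -0.413 to 0.74 and from -0.308 to 0.711, and the numbers were not taken to pair them. The median r of same-numbered pairs was 0.348 at 8 h, 0.199 at 16 h and 0.334 at 24 h. For other pairs the median r was -0.0934, -0.0988 and -0.246. By the median alone, 8 h was thus level with 24 h.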

Additional observations from a re-analysis of the deposited data

Results flagged for a closer look

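The auxin effect of HSF-1-AID animals differed from that of TIR1-only animals, by limma's test of the difference itself (adjusted p under 0.05), for 19 members at 16 h and 19 at 24 h. At 16 h 20.5% of members were lower and 22.7% higher, against 12.4% and 17.3% of all genes. At 24 h these were 36.4% and 6.82%, against 12.8% and 11.4%, so the share higher was not above the background. Differences are HSF-1-AID minus TIR1-only, in log2. At 16 h the mitotic entry genes cdc-25.1 (-0.463), cyb-2.1 (-0.286), cyb-2.2 (-0.286) and cdk-1 (-0.202) were negative, as were hcp-3 (-0.402), fzy-1 (-0.218), air-2 (-0.209), sas-6 (-0.181) and bub-1 (-0.157). On the positive side at that time were the APC genes mat-3 (0.588) and mat-2 (0.386), the centrosome genes tac-1 (0.568), spd-2 (0.432), spd-5 (0.361) and zyg-9 (0.262), the kinesin genes klp-18 (0.276) and bmk-1 (0.239), and the kinetochore genes knl-2 (0.256) and knl-1 (0.196).

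After 24 h the differences were negative for csc-1 (-1.38), hcp-3 (-1.34), knl-3 (-1.15), cyb-1 (-1.02), cdc-25.1 (-0.967), cyb-3 (-0.691), air-2 (-0.673), spd-1 (-0.601), cyb-2.1 (-0.591), plk-1 (-0.589), cyb-2.2 (-0.567), mdf-2 (-0.541), sas-5 (-0.523), fzy-1 (-0.473), bub-1 (-0.457) and sas-6 (-0.392). They were positive for mat-2 (0.688), emb-30 (0.635) and spd-5 (0.482). With the total of listed reads as library size, 9 of the 16 negative calls were lost at 24 h, leaving air-2, cdc-25.1, csc-1, cyb-1, cyb-3, hcp-3 and knl-3, and at 16 h 5 of the 10 positive ones were (bmk-1, klp-18, knl-1, knl-2 and zyg-9). Leaving out 1 library ended the call for sas-6 at both times, for klp-18 and zyg-9 at 16 h and for cyb-3 and spd-1 at 24 h, with the highest adjusted p being 0.105, for sas-6 at 24 h.

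In 14 of 168 groups of 4 libraries, 1 library lay far from the other 3 of its group, judged by its gap to the nearest as a share of the range, and chance gives about 1 in 20 such groups. HSF-1-AID auxin replicate 1 at 8 h was high for ndc-80 (152 CPM), cdc-25.1 (310 CPM), mat-3 (58.9 CPM) and emb-30 (114 CPM), and replicate 2 of that group was low for csc-1 (68.8 CPM). Among HSF-1-AID ethanol libraries, replicate 3 at 8 h was high for air-2 (88.2 CPM) and low for mat-3 (47.8 CPM), and replicate 1 at 16 h was high for fzy-1 (228 CPM). For TIR1-only auxin these were replicate 1 for bir-1 at 8 h (30 CPM, low), replicate 1 for cdk-1 at 16 h (267 CPM, low) and replicate 2 for plk-1 at 16 h (479 CPM, high). For TIR1-only ethanol they were replicate 2 for spd-5 at 8 h (485 CPM, high), replicate 4 for zyg-9 at 16 h (308 CPM, low) and replicate 1 for mat-3 at 16 h (60.8 CPM, low). No cause of these was tested.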

How the results depend on the processing

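No member changed direction of a call under any setting run. For HSF-1-AID auxin against ethanol, 12 to 17 members were lower and 10 to 13 higher at 16 h over the settings other than leaving out libraries, and 14 to 28 lower and 3 to 6 higher at 24 h. The count of the difference between strains depended on scaling: at 16 h 5 members were higher, against 10, with rRNA genes left out of the library size and also with the total of listed reads, and at 24 h 7 were lower, against 16, with the total of listed reads. Over all genes, the higher calls at 16 h fell too, from 1753 to 894 without rRNA and 896 with the total. The lower calls at 24 h fell from 1324 to 754 with the total. Under that total, the 24 h depletion calls of bmk-1, bub-1, him-10, knl-1, mis-12 and sas-6 were lost. With library quality weights 5 were higher for the difference at 24 h, against 3. With the replicate block, which the pairing of libraries at 24 h warrants, 6 were higher for that difference, and no call of the plain fit was lost at 24 h. At 16 h the block gave 15 lower and 12 higher against 14 and 10 (over all genes 2212 and 2354 against 2009 and 2275), at 8 h 0 and 0. At both times some same-numbered pairs deviated apart, so the block is given there only as an alternative, although at 8 h the libraries numbered 4 stood apart in depth and rRNA. The libraries that correlated best with their own number were 12 of 12 at 24 h, 8 of 16 at 16 h and 12 of 16 at 8 h.

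Leaving out 1 library at a time gave 11 to 13 lower and 8 to 11 higher at 16 h and 17 to 19 lower and 3 higher at 24 h for HSF-1-AID animals. For the difference between strains it gave 8 to 10 lower and 8 to 13 higher at 16 h and 13 to 17 lower and 3 higher at 24 h, and 0 at 8 h throughout. None of these fits held the replicate block. The total of listed reads, median-ratio factors and voom weights were added after the data were seen. Recomputed TMM factors, no filter, at least 5 CPM, a prior count of 0.5 and voom moved no count of members by more than 1. The planned edgeR and DESeq2 tests on recovered reads were not run, as the deposited unit is log2. Depth limits little here, with at least 219 reads per member and library, and the spread between 3 or 4 libraries sets the precision.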
